A study of Homo sapiens with 4 samples.

Results

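The genes described here are 45 genes that copy DNA or carry cells from G1 into S phase, picked by name from the pathway, with earlier results of these data known, out of 34755 gene symbols on the array. All 45 had at least 1 probe, 54 probes in all, and all 45 were well above background in both colours on all 4 arrays. The arrays compared SUM149 cells left untreated with SUM149 cells given 2.5 uM Ricolinostat (ACY1215) for 3, 6 or 12 h, with 1 array for each condition. SUM149 is an established line from an inflammatory breast carcinoma, a cancer of the basal kind that lacks the estrogen receptor, the progesterone receptor and amplified ERBB2, and Ricolinostat is an inhibitor of the deacetylase HDAC6. The cells were given a day to attach in 6-well plates, and treatment began on the following day. Total RNA of each culture was labelled with Cy5 and hybridised against a Cy3 reference common to the 4 arrays of 1 slide. No vehicle-treated array at 3, 6 or 12 h was analysed here, so treatment and time since plating cannot be told apart.

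Before S phase, the origin recognition complex with CDC6 and CDT1 loads the ring of MCM2 to MCM7 onto DNA, and CDC45 and the GINS complex later turn that ring into the working helicase. Polymerase alpha with primase starts each strand, the clamp loader RFC places the sliding clamp PCNA, and polymerases delta and epsilon extend, while FEN1 and LIG1 join the fragments of the lagging strand. Entry into this programme is set by E2F transcription factors, which cyclin E with CDK2 helps to release from the retinoblastoma protein. Many of these genes are known E2F targets and are transcribed around the G1/S boundary in dividing cells.

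Shown first are promoters of genes among the lowest at 12 h that carry a short word of the kind E2F factors bind. Whether the word has a part in their changes was not tested. Of the 45 genes, 39 matched a promoter window in RefSeq (build GRCh38.p14, 250 bases before to 50 bases after the start). A window was counted as holding an E2F word if TTTCCCGC, TTTGGCGC, TTTCGCGC or TTTGCCGC lay in it on either strand, and overlapping words on opposite strands were counted separately. Such a word was found in 21 of the 39 windows (53.8%), in 3.33% of all 27305 windows and in 4.44% of the 15843 windows of protein-coding genes. For comparison, 3 of 26 windows of mitosis and G2/M genes (11.5%) held one. The lines below run 5′ to 3′ on the strand of the gene with the E2F word in capitals, and stand for the 6 lowest changes at 12 h among genes whose word lay before or across the start. They are GINS3 (chr16:58392436-58392473, plus strand, its word crossing the start), TYMS (chr18:657584-657651, plus), UHRF1 (chr19:4909457-4909500, plus), POLE (chr12:132687343-132687390, minus), CDC25A (chr3:48188424-48188491, minus) and MCM7 (chr7:100101398-100101436, minus).
GINS3: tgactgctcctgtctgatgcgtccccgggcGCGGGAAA
TYMS: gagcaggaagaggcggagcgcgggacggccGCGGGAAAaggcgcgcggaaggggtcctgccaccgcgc
UHRF1: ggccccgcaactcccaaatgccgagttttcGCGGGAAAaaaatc
POLE: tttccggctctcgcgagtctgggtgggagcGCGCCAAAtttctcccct
CDC25A: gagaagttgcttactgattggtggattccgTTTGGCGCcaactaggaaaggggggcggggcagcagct
MCM7: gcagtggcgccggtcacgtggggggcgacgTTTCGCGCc

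GINS3, TYMS and UHRF1 carry the same letters, GCGGGAAA, which are TTTCCCGC read on the other strand. The identical word also stands before PCNA (chr20:5126644-5126711, minus strand) and RFC3 (chr13:33818064-33818131, plus strand), which were higher than untreated in the ratio at 12 h, although PCNA was lower in Cy5 alone. These last lines were chosen after their values were seen, so they are examples only, and a link between word and change was not tested.
PCNA: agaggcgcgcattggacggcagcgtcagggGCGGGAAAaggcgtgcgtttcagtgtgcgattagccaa
RFC3: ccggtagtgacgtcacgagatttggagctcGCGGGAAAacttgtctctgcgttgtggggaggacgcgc

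Over the 21 genes with an E2F word the median change at 12 h, on the log2 scale explained next, was -0.35 and 16 lay below 0, with a range from -1.30 for GINS3 to 0.41 for RFC3. Over the 18 windows without one the median was -0.12 and 11 lay below 0, with a range from -0.35 to 0.60. The 2 ranges overlap from -0.35 to 0.41. The 2 sets also differ in role, since MCM2, MCM3, MCM6 and MCM7 all hold a word, and a part of the word was not tested. CCAAT, the box bound by NF-Y, was in 53.8% of the 39 windows against 35.7% of all windows, and GGGCGG, the GC box, in 71.8% against 44.6%, both counted on either strand. Of windows of protein-coding genes, 36.4% held CCAAT and 58.5% the GC box, and of the 26 windows of mitosis and G2/M genes 80.8% and 76.9% did. MCM4, MCM5, GINS4, POLD3, CCNE2 and CDK2 had no window in the table, and MCM4 and MCM5 were among the lowest genes at 12 h.

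A value here is log2(Cy5/Cy3) of a gene's brighter probe after background correction and normalization, and a change is that value on a treated array less the value on the untreated array. A change of -1 on this scale is a fall to 50% of the untreated level. There was 1 array for each condition, so no difference below has a test or a replicate check. A gene is said to have risen or fallen if its change reached 1.5-fold, which is 0.585 on the log2 scale. The SD of such changes between spots that repeat 1 probe was 0.118 at 12 h (210 probes), 0.12 at 6 h (200 probes) and 0.172 at 3 h (158 probes), which is the error of the measurement and not the spread between cultures. On the 3 h and untreated arrays 4.54% and 3.37% of spots lay in damaged areas, against 0.186% at 6 h and 0% at 12 h, and the brighter probes of POLA2 and POLD1 lay in such an area on the 3 h array. All 5 epithelial markers (EPCAM, CDH1, KRT8, KRT18, KRT19) and all 4 basal markers (KRT5, KRT14, KRT17, EGFR) were above background in untreated cells, as were ESR1 and ERBB2 but not PGR. Of 8 markers of other cell types, 6 were also above background, with COL3A1 and HBB not, and their part in the results was not tested. The labels call the Cy3 reference a pool of all the untreated and treated SUM149 cells, yet 159 genes were at least 8-fold brighter in every Cy3 channel than in any Cy5 channel. None of the 45 genes was among those 159, and a common reference cancels from a change between arrays.

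At 12 h most helicase genes, TYMS, UHRF1 and POLE were lower than in untreated cells, while CCNE1, CDK2, RFC3 and RFC5 were higher, so the genes did not move as 1 block. The median change of the 45 genes was -0.05 at 3 h, -0.04 at 6 h and -0.17 at 12 h, where the median of all genes measured was 0.01, 0.02 and 0.01. At 12 h 31 of the 45 (68.9%) lay below 0, as did 47.5% of the 20480 genes measured. The medians of the 6 role groups at 12 h ran from -0.26 for helicase loading and activation (14 of 16 genes below 0) to 0.20 for the clamp, its loader and fragment joining (3 of 7 below 0). In Cy5 alone, the sample channel by itself, these 2 medians were -0.51 and -0.07, and with each array centred on its median ratio -0.65 and -0.24, so the sign for the clamp group depends on the scaling while the helicase group was the lower of the 2 each time. Polymerases and primase had a median of -0.14 (6 of 7 below 0), nucleotide supply -0.13 (4 of 5), the E2F and cyclin group -0.08 (3 of 6) and the genes of chromatin behind the fork 0.01 (1 of 4). In Cy5 alone these 4 groups, in the same order, had medians of -0.34 (7 of 7 below 0), -0.18 (4 of 5), -0.23 (4 of 6) and -0.14 (3 of 4). With median centring they had medians of -0.47, -0.51, -0.41 and -0.36, so the sign for the chromatin group depends on the scaling as well. RNA came from whole cultures, so fewer cells in S phase and less of a transcript per cell cannot be told apart.

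**Figure D1:**
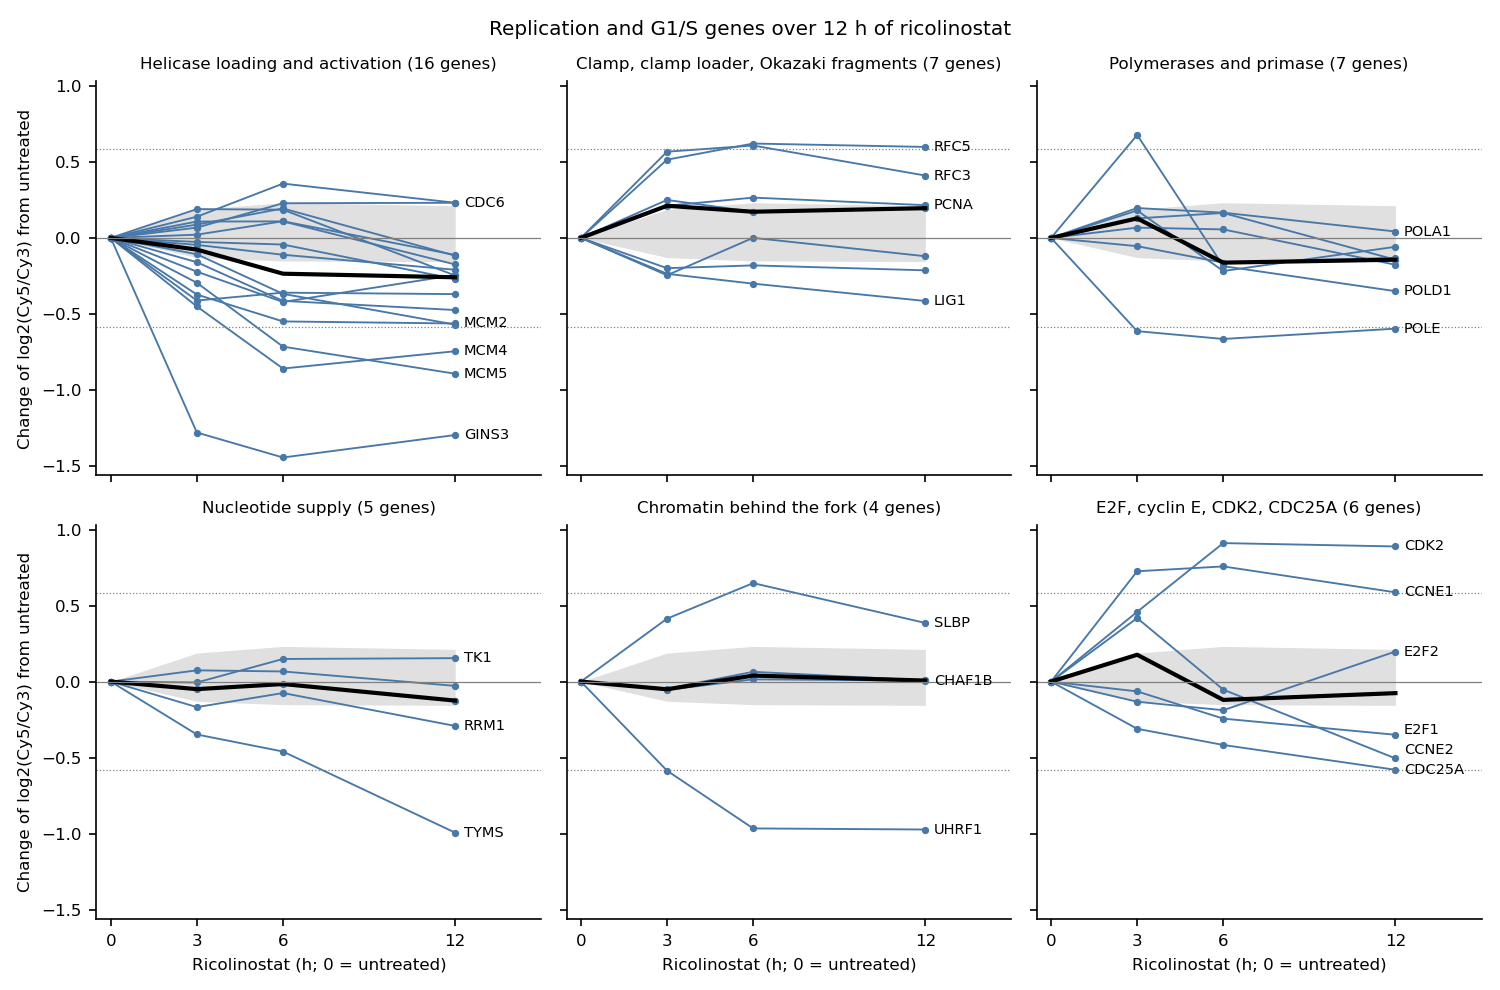
Change of log2(Cy5/Cy3) from the untreated array (vertical axis) against hours of Ricolinostat (horizontal axis) for the 45 genes in 6 role groups; each thin line is 1 gene with 1 array per time, the thick line is the group's median, the grey band spans the middle 50% of all genes measured and dotted lines mark 1.5-fold. The helicase median ends at -0.26 and the clamp median at 0.20 (-0.07 in Cy5 alone), GINS3 is at -1.28 by 3 h, and TYMS goes from -0.46 at 6 h to -0.99 at 12 h; the peak at 3 h among the polymerases is POLD1, whose spot lay in a damaged area.

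Counts past a fixed fold were small at each time. At 3 h 3 genes fell (GINS3, POLE and UHRF1) and 2 rose (CCNE1, and POLD1 from a damaged area), where 1.96% of all genes measured fell and 6.87% rose. At 6 h 5 fell (GINS3, UHRF1, MCM4, MCM5 and POLE) and 5 rose (CDK2, CCNE1, SLBP, RFC5 and RFC3), where 4.42% of all genes fell and 9.4% rose. At 12 h 6 of the 45 fell, which is 13.3% beside 5.13% of all genes, and 3 rose, which is 6.67% beside 8.1%. The 6 were GINS3, TYMS, UHRF1, MCM5, MCM4 and POLE, and the 3 were CDK2, RFC5 and CCNE1. GINS3 alone fell at least 2-fold, at all 3 times against the same untreated spot, and 0 rose 2-fold. Over all genes, 0.371%, 0.939% and 1.12% fell at least 2-fold at 3, 6 and 12 h, and 1.69%, 2.82% and 2.34% rose as much.

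These counts depend on how the 2 colours were scaled. With the Cy5 sample channel alone, quantile-normalized over the 4 arrays, 10 of the 45 fell and 1 rose at 12 h, where 8.31% of all genes fell and 6.58% rose, and the median of the 45 was -0.34 beside -0.05 for all genes. With each array centred on its median ratio and no loess, 18 fell and 1 rose at 12 h, where 13.9% of all genes fell and 4.15% rose. That centring moved the median of all genes itself to -0.16 at 12 h, and the median of the 45 less that of all genes was -0.34, compared with -0.19 in the main scaling and -0.29 in Cy5 alone. Without loess, bright genes were lowered more than dim ones. At 12 h bright MCM7 (28205 Cy5 units untreated) went from -0.57 to -1.08, and dim CDC6 (95 units) from 0.23 to 0.10. The 45 and all genes were not matched for brightness, and its part in the wider gap was not tested. Centring also turned the counts at 3 h to 1 fall and 5 rises (11.1% of the 45), where 1.45% of all genes fell and 9.48% rose. At 6 h centring gave 12 falls (26.7% of the 45) and 2 rises, where 8.68% of all genes fell and 6.83% rose. Over 9 ways of processing, the main one included, 28 genes stayed below 0 at 12 h and 5 stayed above 0 (CDK2, CCNE1, RFC5, RFC3 and CDC6), while 12 took either sign. Among the 9 ways, leaving out damaged areas moved none of the 45 past the SD between spots. The mean of all probes could act only on the 9 genes with more than 1 probe. The share of all genes that kept 1 sign was not counted. Of all genes, 57.6% lay below 0 at 12 h in Cy5 alone and 70.9% with median centring, so these settings favour a value below 0.

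**Figure D2:**
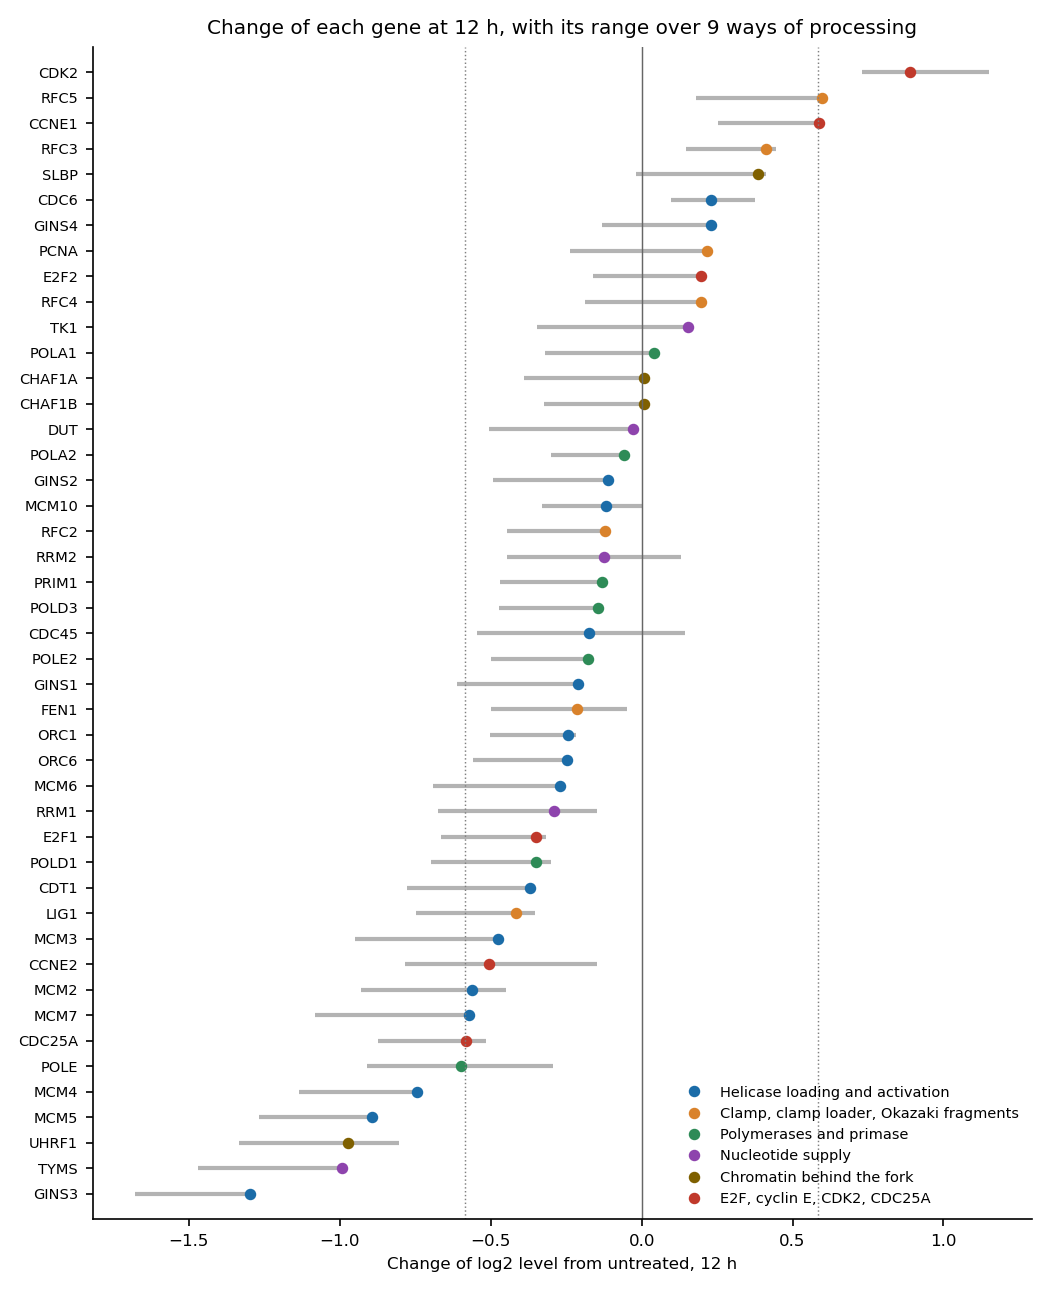
Each of the 45 genes ranked by its change of log2 level at 12 h from untreated (horizontal axis); the dot is the main value, coloured by role group, the grey bar spans the lowest to the highest value over 9 ways of processing, and dotted lines mark 1.5-fold. GINS3, TYMS, UHRF1, MCM5 and MCM4 lie beyond 1.5-fold over their whole bars and CDK2 does on the other side, while the bars of PCNA, RFC4, TK1, SLBP and 8 other genes cross 0.

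The 6 subunits of the MCM ring, which opens the double helix ahead of the fork, were all below the untreated level at 3, 6 and 12 h, both in the ratio and in Cy5 alone, although MCM6 stood at 0.06 at 3 h with median centring. Their median change was -0.23 at 3 h, -0.48 at 6 h and -0.57 at 12 h, so the middle of the 6 stood at 67.5% of untreated at 12 h. In Cy5 alone the medians were -0.30, -0.55 and -0.77, and with median centring the 12 h median was -1.01, or 49.5% of untreated. Every way of processing kept all 6 below 0 at 12 h.

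By the brighter probes, MCM5 had the lowest change of the ring at 12 h, while MCM4 had the lowest at 3 and 6 h. The log2 ratio of MCM5 was 0.16 in untreated cells, -0.13 at 3 h, -0.55 at 6 h and -0.73 at 12 h, a change of -0.89 by 12 h. A second MCM5 probe ran from 0.51 to -0.11, -0.43 and -0.64, a change of -1.16. Both probes stepped down at each time.
MCM4 stood at 0.74 untreated and then at 0.29, -0.12 and 0.00, a change of -0.86 at 6 h and -0.75 at 12 h. MCM2 read 0.32, -0.05, -0.22 and -0.24, a change of -0.56 that was also nearly complete at 6 h. MCM7 read -0.21, -0.32, -0.58 and -0.79, a change of -0.57. Its second probe changed by -0.57, -0.60 and -0.77 at 3, 6 and 12 h, so the early pace of MCM7 differs between its probes. By the brighter probes these 3 subunits share the same direction but not the same pace, since MCM7 went on down from 6 to 12 h (-0.20) and MCM2 hardly moved (-0.01).
MCM3 read 0.02, -0.14, -0.39 and -0.45, a change of -0.47 in the ratio and -0.75 in Cy5 alone. MCM6 read -0.62, -0.65, -0.66 and -0.89, a change of -0.27 in the ratio and -0.69 in Cy5 alone. Its Cy5 signal, in scanner units before background correction and scaling, went from 4026 units untreated to 3702, 2506 and 1982. The Cy3 signal of MCM6 was lower as well, 4034 units untreated and 3353 at 12 h. Such units, here and below, are not levelled between arrays. The Cy5 signal of PCNA, for example, went from 14448 units untreated to 10901 at 12 h while its scaled Cy5 changed by -0.07.

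The other 10 genes of helicase loading and activation had a median of 0.04 at 3 h, 0.11 at 6 h and -0.19 at 12 h in the ratio, and 8 of them were below 0 at 12 h. In Cy5 alone these medians were -0.19, -0.18 and -0.48, so the sign at 3 and 6 h depends on the measure, and with median centring the 12 h median was -0.52. Without the ring, the remaining 39 of the 45 genes had a median of -0.13 at 12 h, with 25 below 0. GINS3 stood apart among them. Its product, PSF3, is 1 of the 4 subunits of the GINS complex. GINS3 had a log2 ratio of 0.97 untreated, -0.31 at 3 h, -0.47 at 6 h and -0.32 at 12 h. The level was at 41.2% of untreated after 3 h and 40.7% after 12 h, and GINS3 changed by 0.15 from 6 to 12 h. Each of these levels is taken from 1 untreated spot of 1 probe. An error in that reading cannot be told apart from a fall by 3 h. Its Cy5 signal went from 2877 units to 1169.5, 834 and 888, while its Cy3 signal stayed between 970 and 1072. Of all genes measured at 12 h, 0.337% had a change as low or lower. GINS1, GINS2 and GINS4, the partners of GINS3 in the complex, changed by -0.21, -0.11 and 0.23 in the ratio at 12 h, and in Cy5 alone by -0.52, -0.47 and 0.03. With median centring GINS4 was at -0.13, below 0 as GINS1 and GINS2 were. GINS2, read in 8 usable spots, had an SD of 0.0991 between spots at that time.

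CDT1, the loader of the ring, had a change of -0.41, -0.36 and -0.37 at 3, 6 and 12 h, level over time, and -0.76 at 12 h in Cy5 alone. CDC6, its partner in loading, was higher at each time by 0.14, 0.36 and 0.23, from a Cy5 signal of only 95 units untreated. ORC6, a subunit of the origin recognition complex, changed by 0.19 at 3 and 6 h and by -0.25 at 12 h, a step of -0.43 between 6 and 12 h. The 7 usable spots of ORC6 ranged from -0.41 to -0.16 at 12 h, all on the same side of 0. ORC1, the large subunit of the same complex, changed by -0.22, -0.42 and -0.24. MCM10 changed by 0.09, 0.19 and -0.12, and CDC45, a part of the working helicase, by 0.11, 0.11 and -0.17. CDC45 had the opposite sign in Cy5 alone at 12 h, 0.14, and its Cy3 signal was higher on that array (4055 units, beside 2985 untreated).

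The sliding clamp and its loader did not follow the ring. PCNA had a log2 ratio of 0.19 untreated and 0.40, 0.46 and 0.41 at 3, 6 and 12 h, a change of 0.22 at 12 h, and its second probe changed by 0.06. In Cy5 alone the brighter PCNA probe changed by -0.07 and with median centring by -0.24, so the sign for PCNA depends on the scaling. RFC5, a small subunit of the clamp loader, changed by 0.51, 0.62 and 0.60, which is 151% of untreated at 12 h. Its Cy5 signal before scaling was 3589, 3453, 3700 and 3272 units and varied little, and its Cy3 reference changed by -0.37 at 12 h. In Cy5 alone RFC5 was 0.18 above untreated. RFC3 changed by 0.57, 0.61 and 0.41, with a second probe at 0.17 at 12 h, and by 0.25 in Cy5 alone. RFC4 was at 0.20 (-0.07 in Cy5 alone) and RFC2 at -0.12 at 12 h. The flap nuclease FEN1 was at -0.21 (-0.05 in Cy5 alone) and the ligase LIG1 at -0.42 (-0.35 in Cy5 alone), the lowest of this group.

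Among the polymerases, POLE, the catalytic subunit of the leading-strand enzyme, had a log2 ratio of 0.46 untreated and -0.15, -0.21 and -0.14 at 3, 6 and 12 h, a change of -0.60. Its Cy5 signal was dim, 153 units untreated and 84 at 12 h, and a dimmer second probe of 42 units changed by 0.01, so the fall of POLE rests on 1 of 2 probes. The small offset added to dim signals also shrinks such changes, and with an offset of 1 in place of 50 the first POLE probe changed by -0.89. POLE2, the second subunit, was at -0.18. POLD1, the catalytic subunit of polymerase delta, was at -0.19 at 6 h and -0.35 at 12 h. Its 3 h value of 0.68 comes from the damaged area, where Cy5 and Cy3 were both dim (804 and 414 units, beside 2029.5 and 1674.5 untreated). POLD3 changed by -0.14 at 12 h and PRIM1, the small primase subunit, by -0.13 (-0.44 and -0.34 in Cy5 alone). POLA1 and POLA2 of polymerase alpha changed by 0.04 and -0.06 at 12 h (-0.32 and -0.13 in Cy5 alone).

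TYMS, thymidylate synthase, which makes dTMP and is the target of fluoropyrimidine drugs, was lower at each successive time, with its largest step last. Its log2 ratio was 0.16 untreated, -0.19 at 3 h, -0.30 at 6 h and -0.84 at 12 h. The level was 72.7% of untreated at 6 h and 50.2% at 12 h. In Cy5 the signal before scaling went from 15665 units to 12736, 9133.5 and 5236, while Cy3 stayed between 8254 and 8484. After scaling, TYMS changed by -1.22 at 12 h in Cy5 alone, beside -0.99 in the ratio. The step in the ratio from 6 to 12 h, -0.53, was the largest fall of the 45 genes in that interval. The other genes of nucleotide supply moved less at 12 h. The large subunit of ribonucleotide reductase, RRM1, was at -0.29, the small subunit RRM2 at -0.13 and thymidine kinase TK1 at 0.15. DUT, which clears dUTP, was at -0.03 (-0.39 in Cy5 alone), with -0.30 in a second probe. RRM2 and TK1 changed sign in Cy5 alone, to 0.13 and -0.18.

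UHRF1, which reads hemimethylated DNA and brings DNMT1 to it after replication, went from a log2 ratio of 0.77 to 0.19, -0.19 and -0.20, a level of 50.9% of untreated at 12 h. Its second probe changed by -0.47, -0.91 and -0.68 and was also lower at all 3 times, although its spot lay in a damaged area at 3 h. SLBP, which binds the stem-loop of histone mRNAs, was above untreated by 0.41, 0.65 and 0.39, though at -0.02 at 12 h with median centring. The chromatin assembly subunits CHAF1A and CHAF1B were at 0.01 and 0.01 at 12 h, and the 10 spots of CHAF1B spanned -0.16 to 0.13, on both sides of 0.

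The drivers of S phase entry split. CCNE1, cyclin E1, had a log2 ratio of 0.02 untreated and 0.74, 0.77 and 0.60 at 3, 6 and 12 h, with Cy5 signals of 2356, 4577.5, 3783 and 2815 units. CDK2, its kinase, had a log2 ratio of -0.73 untreated and -0.27, 0.18 and 0.16, a level of 185% of untreated at 12 h, from a dim Cy5 signal of 129 units untreated and 238.5 at 12 h. In Cy5 alone CDK2 changed by 0.89 and CCNE1 by 0.55, so both were higher in the sample channel itself.
CCNE2, cyclin E2, had a log2 ratio of 0.42 untreated, 0.84 at 3 h, 0.37 at 6 h and -0.08 at 12 h, above untreated first and below it later. A dimmer second probe of CCNE2 changed by 0.51, 0.63 and 0.21 and so differed in sign at 12 h. Both CCNE2 probes were lower at 12 h than at 6 h, with changes of -0.45 and -0.42.
CDC25A, the phosphatase that activates CDK2, changed by -0.31, -0.42 and -0.58. E2F1, an activating E2F and an E2F target itself, had a log2 ratio of 1.20, 1.14, 0.96 and 0.85, a change of -0.35 at 12 h. Its 10 spots ranged from -0.59 to -0.25 at 12 h, all below 0, with an SD of 0.0954, but had an SD of 0.373 at 3 h, where no sign can be given. E2F2, the related factor, read 0.27, 0.14, 0.09 and 0.47, and was the 1 gene of this group that went up from 6 to 12 h (by 0.39). At 12 h E2F2 was at 0.20 in the ratio and at -0.08 in Cy5 alone.

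**Figure D3:**
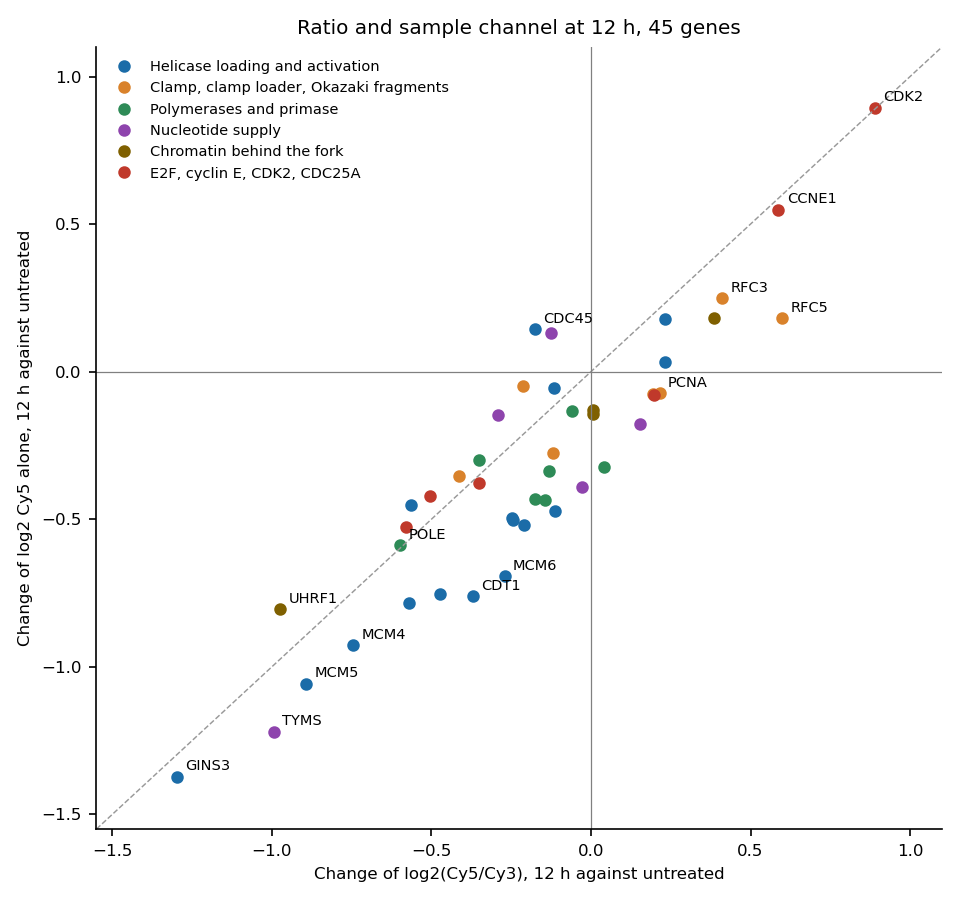
Change at 12 h from untreated of log2(Cy5/Cy3) (horizontal axis) and of the log2 Cy5 sample channel alone (vertical axis) for the 45 genes, coloured by role group, with 1 array per condition and the dashed line marking equal changes. GINS3, TYMS, MCM5 and MCM4 lie at the lower left on both measures and CDK2 and CCNE1 at the upper right, while RFC5 at 0.60 in the ratio is at 0.18 in Cy5, and most points lie under the dashed line.

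A pair of probes was present for 9 of the 45 genes, and at 12 h the pair had the same sign for 6 of them (MCM5, MCM7, PCNA, RFC3, UHRF1 and DUT). POLE, CCNE2 and CHAF1A had probes of opposite sign, with the largest gap, 0.71, for CCNE2. In the ratio and in Cy5 alone, 29 genes were below 0 on both at 12 h and 9 differed in sign. Of all genes measured, 47.5% lay below 0 in the ratio and 57.6% in Cy5 alone. The share of all genes below 0 on both was not counted.

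The interval from 6 to 12 h does not use the untreated array, though it shares the 12 h array with the comparison above. Here 35 of the 45 genes (77.8%) were lower at 12 h, as were 51.4% of the 20719 genes measured. The median was -0.11 beside -0.01 for all genes, and -0.07 beside 0.01 in Cy5 alone. None of the 45 passed 1.5-fold, where 1.15% of all genes fell and 0.473% rose that far. The largest steps down were in TYMS (-0.53), CCNE2 (-0.45), ORC6 (-0.43), POLD3 (-0.31) and MCM10 (-0.31), and E2F2 had the largest step up. In all, 27 genes were lower at 12 h than at both earlier times, 20 were below untreated at all 3 times and 10 above it at all 3. The matching shares of all genes were not counted, and the 3 changes of a gene share 1 untreated array.

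The rest of the replication and E2F pathway, 55 further genes by name of which 54 were measured at 12 h, had a median of 0.04. At 1.5-fold 4 fell (7.41%) and 7 rose (13%), beside 5.13% and 8.1% of all genes measured. The lowest were TIMELESS, of the fork protection complex (-1.24), CDC7, the kinase that fires origins (-0.74), and POLE4, a small polymerase epsilon subunit (-0.65). The highest were TFDP2, a dimer partner of E2F factors (1.05), ASF1A, a histone chaperone (0.96), and POLD4, a small polymerase delta subunit (0.81). TIMELESS changed by -0.34, -0.67 and -1.24 over the 3 times, and CDC7 by -0.93, -1.10 and -0.74. With Cy5 alone the median of these 55 genes was -0.04, and with median centring -0.28, beside -0.05 and -0.16 for all genes.

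Genes of mitosis and G2/M, 30 measured of 32, had a median of 0.01 at 12 h, with 15 below 0. At 1.5-fold 1 fell (3.33%) and 4 rose (13.3%), beside 5.13% and 8.1% of all genes measured. FOXM1, a transcription factor of G2/M genes, was at -0.68, the proliferation marker MKI67 at -0.50 and the mitotic kinase PLK1 at -0.48. NEK2, a centrosomal kinase, was at 1.44, the checkpoint kinase BUB1 at 0.82 and securin, PTTG1, at 0.74. From 6 to 12 h their median was 0.07 while that of the 45 replication and G1/S genes was -0.11. With Cy5 alone the G2/M median at 12 h was -0.14, and with median centring -0.31, beside -0.05 and -0.16 for all genes.

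Inhibitors of cyclin-dependent kinases, which hold cells in G1, had changes above 0 at 12 h in all 6 measured. Of these, 4 rose at least 1.5-fold, where 8.1% of all genes measured rose as much. CDKN2D (p19) changed by 1.70, 2.04 and 1.80 at 3, 6 and 12 h, and CDKN1C (p57) by 0.56, 1.28 and 1.27. CDKN1A (p21) changed by 0.15, 0.62 and 0.96, from a dim Cy5 signal of 48 units untreated to 128 at 12 h. CDKN2C (p18) changed by 0.82, 0.95 and 0.66, and at 12 h by 0.42 with median centring. CDKN1B (p27) was at 0.27 and CDKN2A at 0.11 at 12 h (-0.02 and -0.21 with median centring), and CDKN2B was not well above background. Cyclin D1, CCND1, which starts the passage through G1, was at -0.48, -0.83 and -0.69, CDK6 at -0.36 and CCND3 at 0.52 at 12 h. CDK4 had no value against the untreated array, where its spot lay in a damaged area and was set aside as an outlier. The 10 genes measured of this list had a 12 h median of 0.39, or 0.45 in Cy5 alone and 0.11 with median centring. With that centring 5 of the 10 lay below 0 and 3 rose 1.5-fold, where 4.15% of all genes rose.

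**Figure D4:**
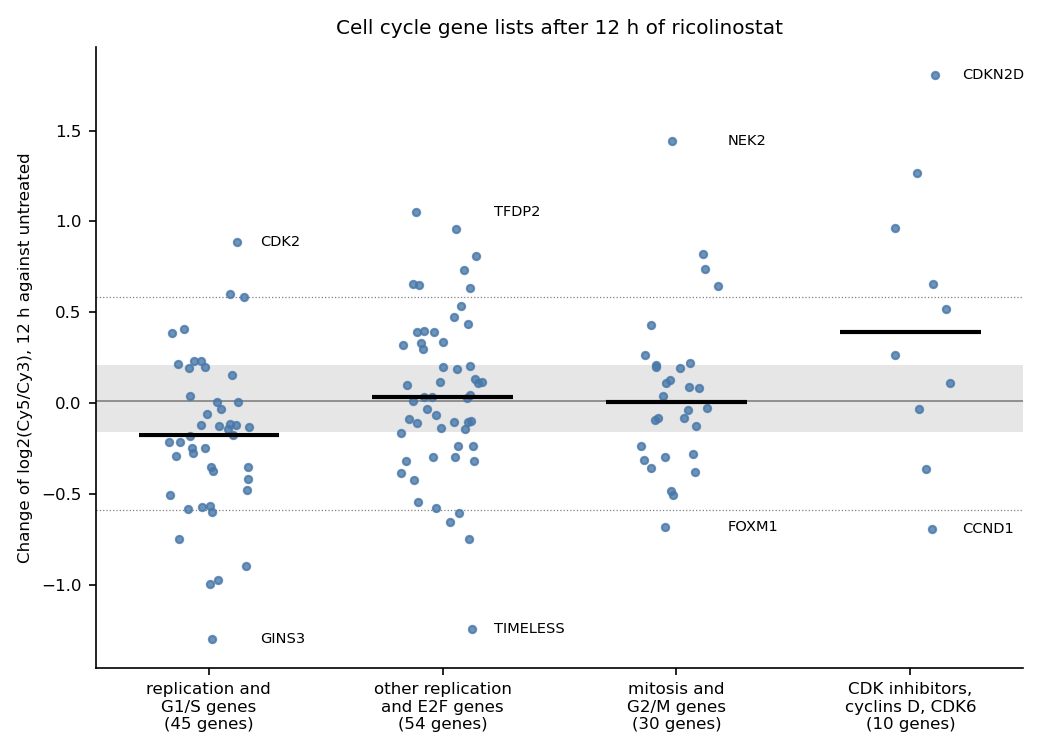
Change of log2(Cy5/Cy3) at 12 h from untreated (vertical axis) for 4 gene lists, each dot a gene and each thick bar the list's median; the grey band spans the middle 50% of all genes measured, the grey line is their median and dotted lines mark 1.5-fold. The 45 replication and G1/S genes have a median of -0.17, the other replication and E2F genes 0.04, the mitosis and G2/M genes 0.01, and the 10 CDK inhibitors, D cyclins and CDK6 0.39. With median centring these medians are -0.50, -0.28, -0.31 and 0.11.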

How the data were processed

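Gene expression was measured on 4 two-colour Agilent arrays of 1 slide, with sample RNA in Cy5 and the reference in Cy3. The deposited scanner files hold Cy5 and Cy3 intensity values per spot, taken by the authors with Agilent Feature Extraction, and its log10 ratio. The deposited series table holds the authors' normalized log2 ratio per spot, whose steps are not given in the sources used here. From the median pixel intensities of 62976 spots per array, background was corrected with normexp (offset 50), control and outlier spots were set aside, and ratios were normalized by loess and then Aquantile in limma 3.58.1 (R 4.3.3). A gene took the probe with the highest mean Cy3 and counted as measured where both dyes of the 2 arrays compared were well above background. Groups came from the sample titles. The steps recovered the sign of changes of at least 2-fold planted in bright probes of simulated arrays without damage. Smaller changes, as most of those above are, were not planted, so this gives no check of their signs. The genes, lists and promoter words were chosen with earlier results of these data known. Named from other lists were the 3 largest rises and falls at 12 h and the measured CDK inhibitors. With 1 array per condition no test was made. Alternatives were other backgrounds, offsets, scalings, filters and probe rules, Cy5 alone and the authors' table.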

Additional observations from a re-analysis of the deposited data

How the results depend on the processing

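No paired analysis was possible because only 1 array stands for each condition. None of the 9 genes past 1.5-fold at 12 h took the opposite sign under any alternative, nor did a median over the 45 genes, except at 3 h, where it was -0.05 and became 0.06 with median centring. The values that moved follow, and the cause was not tested. Shares of all genes under the same setting stand in parentheses. With median centring 1, 12 and 18 of the 45 genes fell 1.5-fold at 3, 6 and 12 h and 5, 2 and 1 rose (1.45%, 8.68% and 13.9% of all genes fell and 9.48%, 6.83% and 4.15% rose), 3 and 6 fell 2-fold at 6 and 12 h (1.99% and 3.44%), the medians at 6 and 12 h were -0.22 and -0.50, and from 6 to 12 h 1 gene fell (2.79%) and the median was -0.25. In Cy5 alone 5 and 10 fell 1.5-fold at 3 and 12 h (5.35% and 8.31%), 2 and 1 rose at 6 and 12 h (7.51% and 6.58%), 3 fell 2-fold at 3 h and 3 at 12 h (1.69% and 2%), the medians at 6 and 12 h were -0.25 and -0.34, and 1 gene fell from 6 to 12 h (1.6%). Both counts of falls at 3 h include POLD1 (-1.44) and POLA2 (-1.19), whose spots lay in a damaged area of that array. The remaining fall of 2-fold at 3 h was GINS3 (-1.42). Scaling Cy5 by its median gave medians of -0.37 at 6 h and -0.53 at 12 h. With a normexp offset of 1, and likewise in the authors' normalized table, 3 genes fell and 1 rose 2-fold at 6 and at 12 h, and 1 rose 1.5-fold at 12 h. With the offset of 1, 2.3% of all genes fell and 5.01% rose 2-fold at 6 h, 2.53% and 4.49% at 12 h, and 12.5% rose 1.5-fold at 12 h, and by the authors' values these shares were 2.01%, 4.01%, 2.2%, 3.67% and 10.6%. Without background subtraction 1 rose 2-fold at 6 h and 1 at 12 h (4.05% and 3.45%), and 2 fell 2-fold at 12 h (1.65%). Feature Extraction's processed signals gave 2 rises of 1.5-fold at 6 h (13.3%) and 3 falls of 2-fold at 12 h (3.45%). The mean of all probes gave 1 fall of 1.5-fold at 3 h (1.71%) and 2 falls of 2-fold at 12 h (0.917%), and leaving out damaged areas gave 1 rise at 3 h (5.36%). All 45 genes were above background on all 4 arrays, so neither filter on dim probes could move their values, and both are left out of the 9 ways of processing over which signs were counted. The array number limits all precision, and dim probes such as those of POLE, CDC6 and CDK2 lie close enough to background for the offset to set the size of their change.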
